A study of Rattus norvegicus with 9 samples.

Results

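The genes of rat chemokines and of their receptors were compared between the prostates of 3 groups of male Sprague Dawley rats, with 3 one-colour arrays per group. They were found by name: probes whose accession belongs to a gene with a symbol that starts with Ccl, Cxcl, Cx3cl, Xcl, Cxcr, Cx3cr, Xcr or Ackr, or with Ccr and a digit. Of 57 such genes in the RefSeq table, 53 had a probe, among 15163 gene symbols on the array, and these 53 comprised 33 ligands and 20 receptors. Ackr1, Ackr4, Ccr8 and Cxcl3 were without a matched probe and are not analysed here. All rats were 6 weeks old when purchased. Rats of the sham group underwent a sham operation and received subcutaneous corn oil and oral vehicle (distilled water). Rats of the BPH group were castrated, received dihydrotestosterone (DHT, 3 mg/kg per day, subcutaneously) for 4 weeks, and the oral vehicle. Rats of the BPH+ghrelin group were castrated and received the same DHT, together with oral rat ghrelin (20 nmol/kg per day) in the last 2 weeks, as the methods give it; a legend of the study names another dose and route, and this was not resolved. BPH and BPH+ghrelin therefore share castration and DHT, and the DHT-treated rats differ from sham by both at once. BPH stands for benign prostatic hyperplasia, the enlargement of the prostate that castration with androgen replacement models here in young rats. Prostates of 3 of the 8 rats kept per group were hybridized, and which 3 is not stated. The labels do not name the animals, so that p-values measure the spread between these arrays.

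Chemokines are small secreted proteins that guide leukocytes along a gradient. Ligands of the CXC family with a glutamate-leucine-arginine motif call neutrophils through CXCR2, many CC ligands call monocytes, lymphocytes or eosinophils, and a few, such as CXCL12, are made constitutively by stroma and set where cells stay. The receptors couple to inhibitory G proteins, while atypical receptors such as ACKR3 take ligands up without this coupling. In the prostate, stroma, epithelium and resident macrophages can make chemokines, and infiltrates of lymphocytes and macrophages are common in benign hyperplasia.

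The 10 members that passed the test in at least 1 comparison were ligands, and 9 of them were called lower where they were called. Of these 9, 2 were called lower in BPH than in sham (of 39 members tested, background 2.18% of all genes), 3 in BPH+ghrelin than in BPH (of 40, background 0.987%) and 8 in BPH+ghrelin than in sham (of 37, background 3.30%). Each of these counts was 0 without 3 arrays, described further on, whose values lie between those of the others of their group. No receptor was called, but few were tested, and a difference between ligands and receptors was not tested. Cxcl1, a neutrophil attractant, was 3.32-fold lower in BPH than in sham and a further 1.96-fold lower in BPH+ghrelin than in BPH. Ccl7, a monocyte attractant, and Ccl28, an epithelial mucosal chemokine, fell with ghrelin by 2.35-fold and 5.44-fold. All of these sizes were smaller with another background correction, where the ghrelin calls of Cxcl1 and Ccl7 were lost. Each of the 3 ghrelin calls was kept in 1 of 6 fits without 1 array. Cxcl12 was the only member called higher, by 1.67-fold in BPH+ghrelin against sham, and this call was kept in 0 of 6 fits without 1 array. Since whole tissue was measured, fewer cells of a type and less RNA per cell cannot be told apart in any of these values.

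The promoters of 5 ligands are shown first. Cxcl1 and Ccl7 were called in BPH+ghrelin against both other groups, and Cxcl2 is the near relative of Cxcl1 (itself called in no comparison). Ccl28 had the largest difference between BPH+ghrelin and BPH in the fit of all arrays, though not in every alternative, and Cxcl12 was called higher. Each promoter is the 250 bases before the transcript start on the strand of the gene, taken from RefSeq (build GRCr8). Capitals mark matches, on either strand, to 4 elements: the kappa B element, the AP-1 element (spelled TGANTCA), the TATA box (spelled TATAAA) and the half-site of the androgen response element (spelled AGAACA).
Cxcl1: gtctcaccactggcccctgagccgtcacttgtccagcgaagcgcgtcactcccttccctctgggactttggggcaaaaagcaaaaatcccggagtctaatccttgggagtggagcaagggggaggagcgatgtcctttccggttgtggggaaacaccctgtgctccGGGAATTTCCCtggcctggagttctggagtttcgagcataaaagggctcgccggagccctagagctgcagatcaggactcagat
Cxcl2: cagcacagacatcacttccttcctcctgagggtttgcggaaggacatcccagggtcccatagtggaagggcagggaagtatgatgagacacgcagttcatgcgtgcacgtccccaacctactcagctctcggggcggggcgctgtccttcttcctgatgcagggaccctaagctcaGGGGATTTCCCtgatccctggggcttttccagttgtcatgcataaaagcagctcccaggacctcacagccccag
Ccl7: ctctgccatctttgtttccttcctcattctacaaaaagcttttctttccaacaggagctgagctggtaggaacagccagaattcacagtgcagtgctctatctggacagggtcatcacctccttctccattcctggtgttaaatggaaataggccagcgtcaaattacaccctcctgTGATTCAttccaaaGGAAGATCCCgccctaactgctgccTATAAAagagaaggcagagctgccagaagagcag
Ccl28: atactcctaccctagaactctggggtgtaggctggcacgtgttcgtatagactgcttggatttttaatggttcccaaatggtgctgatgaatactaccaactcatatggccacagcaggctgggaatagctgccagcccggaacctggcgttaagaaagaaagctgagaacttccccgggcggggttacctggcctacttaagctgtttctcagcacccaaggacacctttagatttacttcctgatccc
Cxcl12: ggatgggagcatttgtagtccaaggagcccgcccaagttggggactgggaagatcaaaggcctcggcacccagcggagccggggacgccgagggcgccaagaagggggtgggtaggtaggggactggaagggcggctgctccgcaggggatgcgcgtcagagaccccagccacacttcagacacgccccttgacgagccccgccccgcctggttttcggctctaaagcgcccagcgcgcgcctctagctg
The Cxcl1 promoter lies at chr14:17479322-17479571 (minus strand), that of Cxcl2 at chr14:17467256-17467505 (minus strand), that of Ccl7 at chr10:67513845-67514094 (plus strand), that of Ccl28 at chr2:53333821-53334070 (plus strand) and that of Cxcl12 at chr4:152060531-152060780 (plus strand). The Cxcl1 window held 2 kappa B matches that overlap, 1 on each strand, between 84 and 74 bases before the start. The Cxcl2 window held 2 matches that overlap, between 74 and 64 bases before the start. In Ccl7, an AP-1 match, a kappa B match and a TATA box followed each other within 73 bases of the start, without overlap. The windows of Ccl28 and Cxcl12 held none of the 4 elements. Of the 53 genes, 42 had an entry in the promoter table. A kappa B match was present in 9 of these 42 (Ccl7, Ccl9, Ccl20, Ccr3, Cxcl1, Cxcl2, Cxcl6, Cxcl10 and Cxcl11), where 6.33% of all 33469 windows held one. For AP-1 the count was 7 of 42 and the share of all windows 6.34%, for the TATA box 12 of 42 and 12.9%, and for the androgen half-site 5 of 42 and 17.5%. These are matches of letters, and no binding was measured.

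The values are log2 intensities after quantile normalization over the 9 arrays, and differences are given on this log2 scale, so that 1 unit is a 2-fold difference. A probe brighter on one array than another can be compared, but values of different genes cannot, because probes differ in brightness. Array numbers in a group are the replicate numbers of the labels. The arrays had 61.4% to 75.05% of probes well above background, with raw median intensities of 40.9 to 133, and no spot was saturated. Of the 8 markers of luminal prostate epithelium fixed as a list, all 8 were well above background on all 9 arrays, among them Pbsn (probasin) at 16.2 to 16.4 in sham, 13.1 to 14.1 in BPH and 14.3 to 14.5 in BPH+ghrelin.

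The arrays of a group were not alike in their relation to each other. Each group had 1 array with values between those of the other 2 on most of 22568 probes, namely sham replicate 3 (72.8% of probes), BPH replicate 2 (70.6%) and BPH+ghrelin replicate 2 (68.3%), while each of the other 6 did so on 10.1% to 17.9%. Whether these 3 arrays hold RNA of their own was not tested. Counts of called members are therefore given with and without them. Over all genes, 3, 0 and 2 were called by limma without them in BPH against sham, BPH+ghrelin against BPH and BPH+ghrelin against sham, in place of 847, 293 and 1210. By the scan times in the file headers, the arrays were scanned in 3 sets: the BPH arrays with BPH+ghrelin replicate 1, BPH+ghrelin replicates 2 and 3 with sham replicates 1 and 2, and sham replicate 3 alone. BPH and sham share no scan, so that scan and group cannot be told apart in that comparison. Fat genes differed between arrays of a group: Adipoq was at 3.28, 12.0 and 10.5 in sham, 11.4, 11.0 and 9.99 in BPH, and 0.58, 10.9 and 11.9 in BPH+ghrelin.

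Most chemokine genes were measurable in the prostate. Of the 53 members, 30 were well above background on all 9 arrays, 12 on some and 11 on none. The 11 were Ccl1, Ccl25, Ccl26, Cxcl6, Ccr3, Ccr4, Ccr7, Ccr10, Cxcr1, Cxcr5 and Xcr1, thus 4 ligands and 7 receptors. For several pairs the ligand was measured and its receptor was not: Cxcl13 without Cxcr5, Ccl19 and Ccl21 without Ccr7, Ccl22 without Ccr4, and Ccl24 without Ccr3. A signal near background sets only an upper limit to the level on these arrays. The reverse held for Ccr9, the gut-homing receptor, which was above background on all arrays while its ligand Ccl25 was on none.

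**Figure D1:**
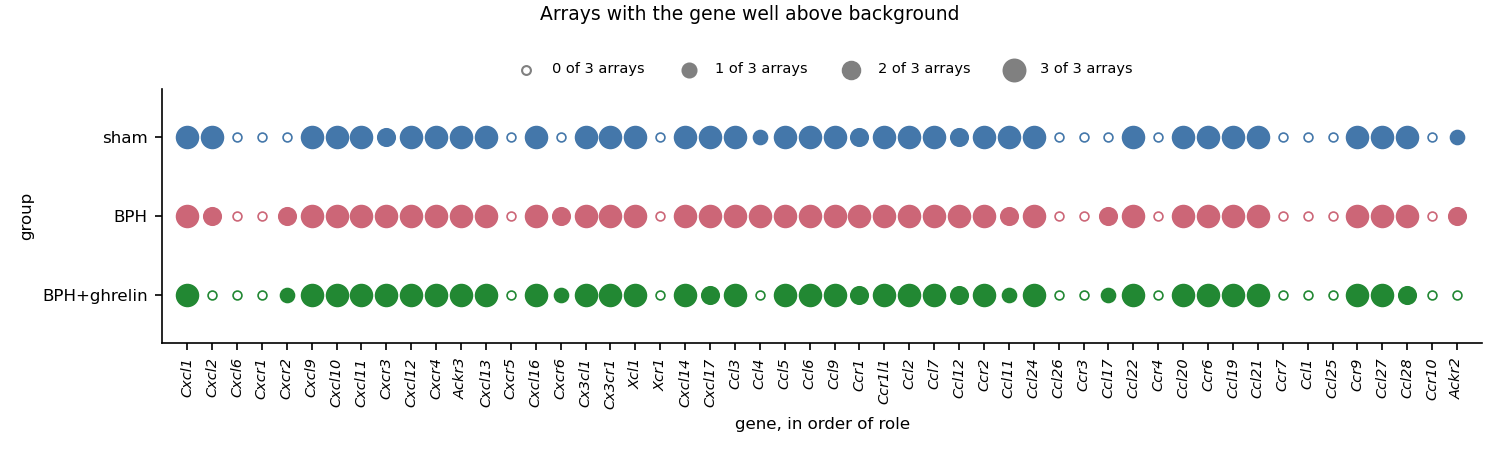
Number of arrays per group (0 to 3, by size of the circle, open for 0) on which each of 52 genes was well above background; columns are genes in order of role and rows are the 3 groups. In 29 genes all circles are full size, and 11 genes are open in all groups.

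Testing was limited to genes detected, that is with a probe well above background, on 3 or more of the 6 arrays of a comparison. Members are named as called where limma gave an adjusted p under 0.05, with Benjamini-Hochberg adjustment over all genes tested. A member may have passed this filter through the brighter group alone, as was the case for Cxcl2 in BPH+ghrelin against sham and for Ccl4 in BPH+ghrelin against BPH. The comparisons share arrays: sham enters 2 of them, BPH 2 and BPH+ghrelin 2. The smallest two-sided p that an exact permutation test can give for 3 against 3 arrays is 0.1, so that single members were judged in the fit over all genes.

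In BPH against sham, Cxcl1 and Ccl19 were called lower and no member was called higher, out of 39 members tested. Over all 19552 genes tested, 2.18% were called lower and 2.15% higher, against 5.13% of members lower. At least 2-fold lower were 7 members (17.9%, background 4.63%), and at least 2-fold higher was 1, Cxcr3 (2.56%, background 3.53%). After normexp background correction, 1 member was at least 2-fold lower. Groups were fully apart, with no overlap of arrays, in 16 members (41.0%, background 31.3%). The median difference of the members was −0.27, where that of all genes was 0.04. At an unadjusted p under 0.05 there were 16 members (41.0%, background 26.5%). The count of 2 calls was 1 without BPH replicate 2, without BPH replicate 3 or without sham replicate 3, 10 without sham replicate 1, and 0 without the 3 arrays that lie between others. Calls over all genes moved in the same way, to 0.609%, 1.29%, 0.813% and 15.7% when these single arrays were left out, in the order given.

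In BPH+ghrelin against BPH, Cxcl1, Ccl7 and Ccl28 were called lower and no member was called higher, out of 40 tested. Over all 19749 genes tested, 0.987% were called lower and 0.496% higher, against 7.5% of members lower. At least 2-fold lower were 7 members (17.5%, background 3.20%), and none was 2-fold higher (background 2.90%). These 7 were 0 after normexp background correction and 2 with the filter on all 6 arrays. The arrays did not overlap in 22 members (55%, background 39.2%), of which 16 were lower with ghrelin (40%, background 19.3%) and 6 higher (15%, background 19.8%). The median difference of members was −0.42, and 0.02 over all genes. At an unadjusted p under 0.05 there were 20 members (50%, background 21.1%). The 3 calls depended on single arrays: 1 remained without BPH+ghrelin replicate 1, and 0 without BPH+ghrelin replicate 2, BPH+ghrelin replicate 3, BPH replicate 1 or BPH replicate 2, or without the 3 arrays between others. Over all genes the share called in the 5 fits without these single arrays was 0.0152% to 0.395%. With scan as a block there were 0 calls, and the share of all genes called was then 0.0101%. Within the scan that held BPH+ghrelin replicate 1 and all 3 BPH arrays, the 3 called genes differed by 1.15 to 1.56 in size, with a single array on one side.

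In BPH+ghrelin against sham, 9 of 37 members tested were called: Cxcl1, Ccl2, Ccl3, Ccl7, Ccl11, Ccl19, Cxcl13 and Cxcl17 were lower, and Cxcl12 was higher. Over all 19197 genes tested, 3.30% were called lower and 3.00% higher, against 21.6% and 2.70% of members. At least 2-fold lower were 10 members (27.0%, background 4.20%), and at least 2-fold higher was 1, again Cxcr3 (background 3.21%). These 10 were 2 after normexp background correction and 6 with the filter on all 6 arrays. After normexp, the 8 genes called lower had differences of −0.44 to −1.02, in place of −1.38 to −3.85. The arrays did not overlap in 17 members (45.9%, background 30.4%). The median difference was −0.41 for members and 0.04 for all genes. The count of 9 was 5 without BPH+ghrelin replicate 1, 3 without BPH+ghrelin replicate 2, 3 without sham replicate 3, and 0 without the 3 arrays between others. Over all genes the share called without these 3 single arrays was 2.12%, 1.16% and 1.34%. With scan as a block, 1 call was left, that of Cxcl1 (adjusted p = 0.017 in limma), and the share of all genes called was then 0.438%. Within the scan that held 2 arrays of each group, the 9 genes differed by 0.60 to 4.53 in size; their direction could not change, since their arrays do not overlap.

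**Figure D2:**
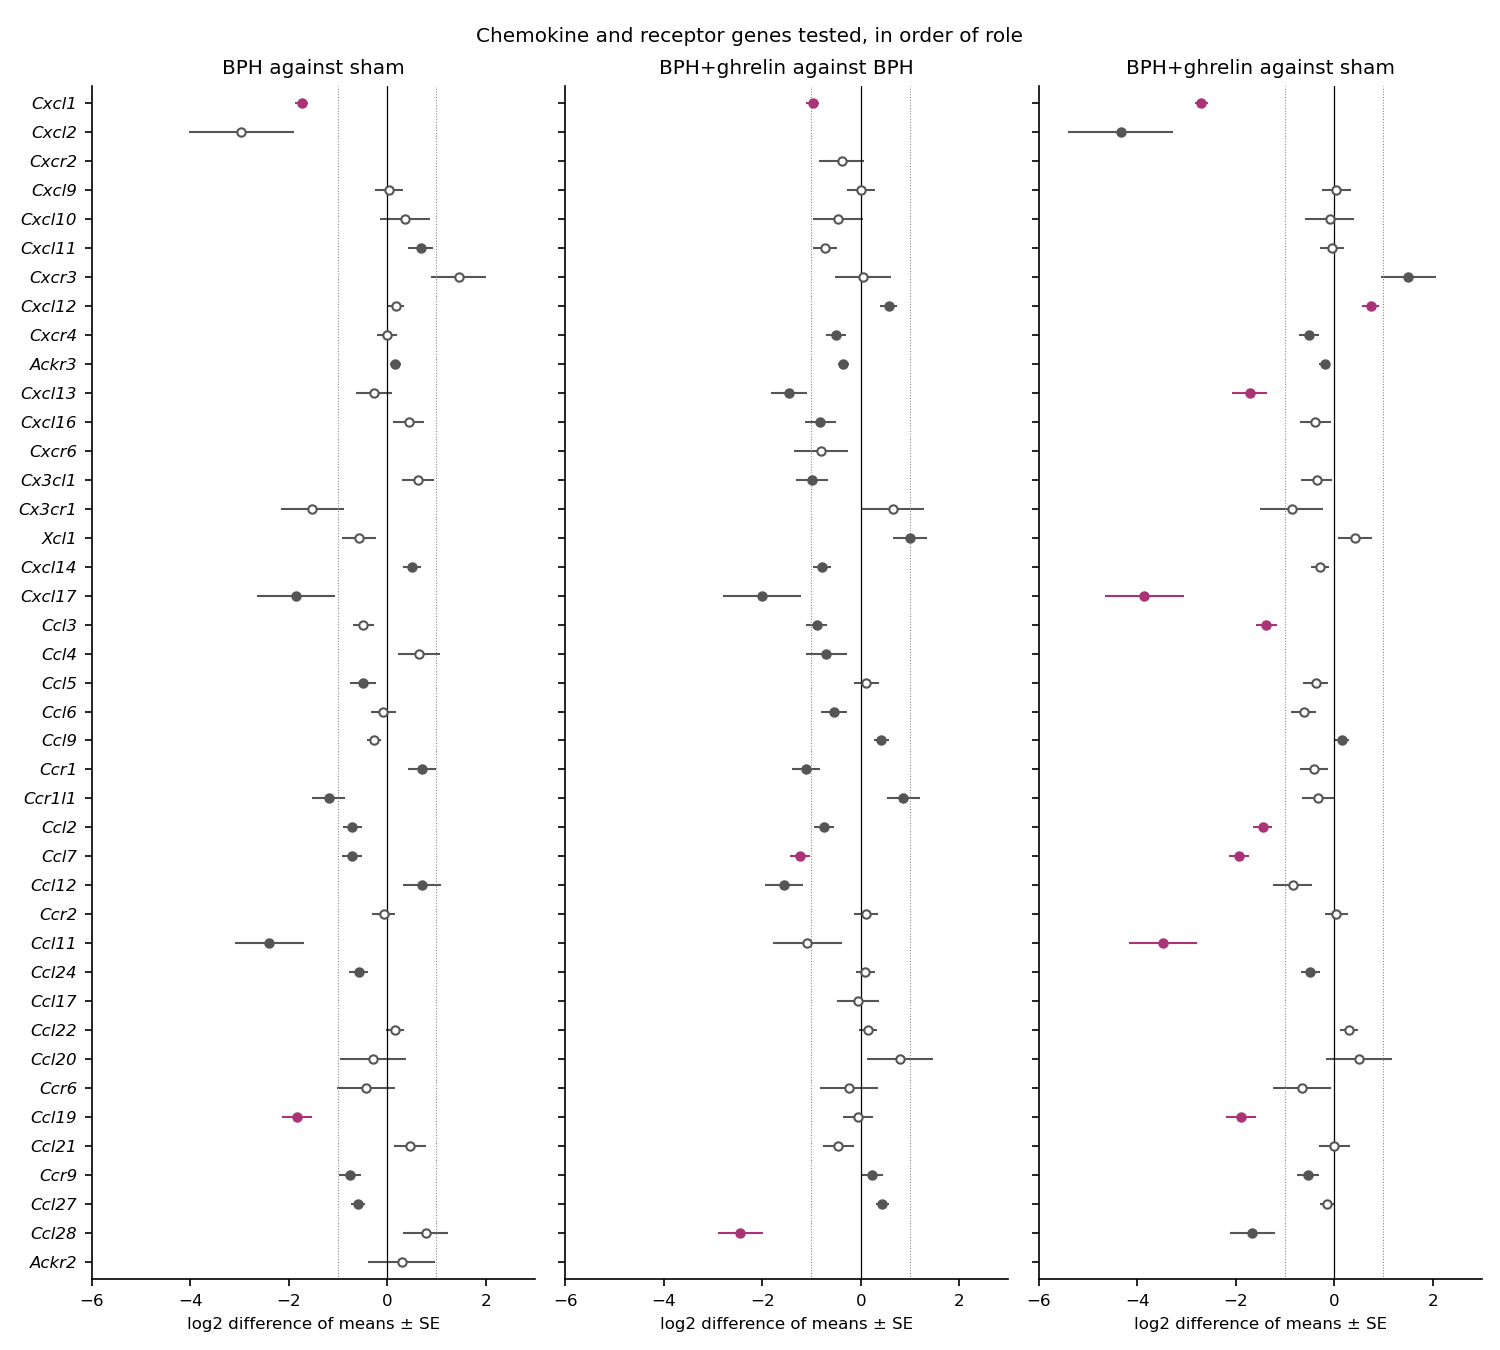
Differences of group means on the log2 scale with their standard errors from limma, for the members reported here that were tested in the comparison named above the panel; genes are in order of role, filled points are members whose arrays do not overlap, and colored points are called. Cxcl1 lies left of 0 in all 3 panels, at −1.73, −0.97 and −2.70.

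Cxcl1 and Cxcl2 both act on CXCR2, the receptor that draws neutrophils. The 3 sham arrays had Cxcl1 at 6.56, 6.69 and 6.54, the BPH arrays at 4.80, 4.83 and 4.96, and the BPH+ghrelin arrays at 3.71, 3.88 and 4.09. The 3 groups form steps without overlap, and the spread inside each was small. The difference of BPH from sham was −1.73 ± 0.13 (SE; limma, adjusted p = 0.0011), that of BPH+ghrelin from BPH −0.97 ± 0.13 (adjusted p = 0.024), and that of BPH+ghrelin from sham −2.70 ± 0.13 (adjusted p = 1.5e-04). Without any 1 array the calls against sham were kept, with adjusted p of at most 0.014 for BPH and 0.0025 for BPH+ghrelin. The call between BPH+ghrelin and BPH was kept in 1 of 6 such fits, without BPH replicate 3; leaving out any other of these 6 arrays gave up to 0.15. Background correction by normexp with an offset of 50, which by construction compresses dim probes, brought the 3 differences to −0.74, −0.22 and −0.96, with adjusted p of 7.4e-04, 0.091 and 2.1e-04.

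Cxcl2 varied widely inside the sham group, at 3.31, 7.81 and 6.13, and was at 3.77, 3.00 and 1.61 in BPH and at 0.57, 1.64 and 2.05 in BPH+ghrelin. None of the BPH+ghrelin arrays was well above background, so that it was at least 8.27-fold higher in sham than in BPH+ghrelin (adjusted p = 0.051 in limma, for a gene that passed the filter through sham alone). This bound rests on the mean of the 3 sham arrays: the measured difference of BPH+ghrelin from sham was −4.33, −3.30 without sham replicate 2 and −1.04 after normexp correction. The arrays of BPH and sham overlapped, and BPH differed from sham by −2.96 ± 1.07 (adjusted p = 0.13). The neutrophil genes S100a8 and S100a9 had the same order across the sham arrays. S100a9 was at 4.00, 7.82 and 6.16 in sham, 3.68, 3.39 and 2.68 in BPH, and 4.63, 3.90 and 3.75 in BPH+ghrelin. Camp shared this order, at 2.10, 5.57 and 3.93 in sham. Elane did not, at 4.91, 4.06 and 4.73 in sham, nor did Csf3r, at 2.72, 3.36 and 3.62. Sham replicate 3 lay between the other 2 sham arrays on 72.8% of 22568 probes, so that such an order is not particular to neutrophil genes. Of 5 neutrophil markers with a probe, 3 to 5 were above background per array, and their summed level ranged from 6.20 to 8.96 in sham, 5.89 to 6.13 in BPH and 6.23 to 6.38 in BPH+ghrelin. By gene, 2 of the 5 were lower and 3 higher in BPH+ghrelin against BPH, among them Camp at −0.73 ± 0.76 and S100a9 at 0.84 ± 0.83, and none was called by limma. Their part in the Cxcl1 values was not tested. Cxcr2 itself was near background, at 1.25 to 2.75 in sham, 2.74 to 2.95 in BPH and 1.92 to 3.35 in BPH+ghrelin. Cxcl1 and Cxcl2 are close in sequence, and cross-reaction of their probes was not tested.

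Ccl2, Ccl7 and Ccl12 are ligands of CCR2 that draw monocytes. Ccl7 was at 5.21, 5.84 and 5.28 in sham, at 4.91, 4.74 and 4.57 in BPH, and at 3.57, 3.28 and 3.68 in BPH+ghrelin. As for Cxcl1, the groups did not overlap. The difference was −0.71 ± 0.20 between BPH and sham (adjusted p = 0.084 in limma), −1.23 ± 0.20 between BPH+ghrelin and BPH (adjusted p = 0.035) and −1.94 ± 0.20 between BPH+ghrelin and sham (adjusted p = 0.0024). The last of these was kept without any 1 array. The ghrelin call was kept only without BPH replicate 3, and the adjusted p reached 0.18 when another of these 6 arrays was left out. After normexp correction it was −0.21 (adjusted p = 0.19).

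Ccl2 went the same way, with a smaller difference between BPH+ghrelin and BPH, at 6.77, 6.08 and 6.43 in sham, 5.68, 5.68 and 5.81 in BPH, and 4.77, 4.93 and 5.22 in BPH+ghrelin. Its groups also stood apart from each other. It was called against sham in BPH+ghrelin (−1.46 ± 0.20, adjusted p = 0.0068 in limma), in each fit without 1 array. The steps from sham to BPH (−0.71 ± 0.20, adjusted p = 0.078) and from BPH to BPH+ghrelin (−0.75 ± 0.20, adjusted p = 0.096) did not pass. Ccl12 had a different course: 4.37, 3.05 and 4.32 in sham, 4.81, 4.57 and 4.49 in BPH, and 3.64, 2.98 and 2.57 in BPH+ghrelin. Its arrays did not overlap between BPH+ghrelin and BPH (−1.56 ± 0.39, adjusted p = 0.091). The receptor Ccr2 stayed within 3.18 to 4.11 over all 9 arrays, with differences of −0.07 to 0.11.

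Among the ligands of the inflammatory CC receptors such as CCR1, which act on monocytes and T cells, Ccl3 was at 5.83, 5.84 and 5.71 in sham, at 5.75, 5.34 and 4.84 in BPH, and at 4.47, 4.28 and 4.49 in BPH+ghrelin. All BPH+ghrelin arrays lay below all others, while sham and BPH overlapped. Against sham the difference was −1.38 ± 0.21 (adjusted p = 0.012 in limma), and this call was lost without BPH+ghrelin replicate 2 or sham replicate 3 (adjusted p up to 0.068). Against BPH it was −0.90 ± 0.21 (adjusted p = 0.081). In this group, Ccl4, Ccl5, Ccl6, Ccl9, Ccr1 and Ccr1l1 were called in no comparison. Ccr1 was at 3.20, 3.74 and 3.16 in sham, 4.21, 3.92 and 4.07 in BPH and 2.34, 3.15 and 3.39 in BPH+ghrelin, with a ghrelin difference of −1.11 ± 0.28 (adjusted p = 0.093). Ccr1l1, a gene related to Ccr1, was at 5.10, 5.68 and 6.32 in sham, 4.52, 4.79 and 4.22 in BPH and 4.90, 5.52 and 5.69 in BPH+ghrelin. It was thus lower in BPH than in both other groups without overlap (−1.19 ± 0.33 against sham, adjusted p = 0.080). Without sham replicate 1 this reached an adjusted p of 0.026.

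Ccl11 and Ccl24 are eotaxins, which call eosinophils through CCR3. Ccl11 was at 5.17, 7.23 and 6.24 in sham, at 4.67, 4.17 and 2.61 in BPH and at 1.81, 2.89 and 3.50 in BPH+ghrelin. It was well above background on all 3 sham arrays, on 2 of 3 BPH arrays and on 1 of 3 BPH+ghrelin arrays. The sham arrays lay above all others. BPH+ghrelin was called against sham (−3.48 ± 0.70, adjusted p = 0.029 in limma), which was lost without BPH+ghrelin replicate 1, BPH+ghrelin replicate 2 or sham replicate 3 (adjusted p up to 0.11). BPH against sham gave −2.40 ± 0.70 (adjusted p = 0.087, and 0.037 without sham replicate 1), and BPH+ghrelin against BPH gave −1.08 ± 0.70. After normexp correction, the difference of BPH+ghrelin from sham was −0.88 (adjusted p = 0.064). Ccl24 was at 12.7, 13.5 and 13.1 in sham, and at 12.5 to 12.7 on all 6 arrays of DHT-treated rats, with differences from sham of −0.58 (adjusted p = 0.11) and −0.48 (adjusted p = 0.16).

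Ccl19 and Ccl21 hold T cells and dendritic cells in lymphoid tissue through CCR7. Ccl19 was at 5.48, 6.61 and 5.91 in sham, at 4.53, 4.28 and 3.68 in BPH and at 4.10, 4.12 and 4.11 in BPH+ghrelin. Both DHT-treated groups lay below sham and overlapped each other. BPH against sham was −1.84 ± 0.31 (adjusted p = 0.021 in limma) and BPH+ghrelin against sham −1.89 ± 0.30 (adjusted p = 0.014). Between BPH+ghrelin and BPH the difference was −0.05 ± 0.31. Each of the calls was kept in 3 of 6 fits without 1 array: that of BPH was lost without BPH replicate 2, BPH replicate 3 or sham replicate 3 (adjusted p up to 0.094), and that of BPH+ghrelin without BPH+ghrelin replicate 1, BPH+ghrelin replicate 2 or sham replicate 3 (up to 0.068). Ccl21 did not follow: it was at 5.96 to 6.80 in sham, 6.73 to 6.81 in BPH and 5.66 to 6.88 in BPH+ghrelin.

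Cxcl13, which gathers B cells in follicles, was at 6.55, 7.83 and 7.06 in sham, at 6.55, 6.94 and 7.15 in BPH and at 4.91, 5.51 and 5.86 in BPH+ghrelin. Sham and BPH overlapped, with sham reaching higher, and the BPH+ghrelin arrays lay below both. The difference of BPH+ghrelin was −1.72 ± 0.36 from sham (adjusted p = 0.033 in limma) and −1.45 ± 0.36 from BPH (adjusted p = 0.088). The former was kept in 2 of 6 fits without 1 array, being lost without any BPH+ghrelin array or sham replicate 3 (adjusted p up to 0.11). Its receptor Cxcr5 was on no array above background. Of the 5 B cell markers with a probe, 2 to 3 were above background on each array, and their summed level was 7.93 to 8.42 in sham, 7.72 to 7.90 in BPH and 7.90 to 8.08 in BPH+ghrelin.

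Ccl28 and Cxcl17 are made by mucosal epithelia. Ccl28 was at 6.13, 5.37 and 5.84 in sham, at 6.09, 6.62 and 6.99 in BPH and at 5.00, 4.24 and 3.12 in BPH+ghrelin, with the last array near background. In the fit of all arrays it was the member with the largest difference between BPH+ghrelin and BPH (−2.44 ± 0.46, 5.44-fold, adjusted p = 0.047 in limma). This rank was not kept in every alternative. Without BPH replicate 3, the difference was −2.41 for Cxcl17 and −2.23 for Ccl28. Within the scan that held BPH+ghrelin replicate 1 and the BPH arrays, it was −1.97 for Cxcl13 and −1.56 for Ccl28. Ccl28 was not lower in BPH than in sham (0.78 ± 0.46, adjusted p = 0.30). The BPH+ghrelin arrays lay below all others. Of the fits without 1 array, the ghrelin call was kept in that without BPH+ghrelin replicate 1, and it was lost without any other of these 6 (adjusted p up to 0.22). After normexp correction the difference was −0.87 (adjusted p = 0.038), and with scan as a block it was −1.56 (adjusted p = 0.44). Cxcl17 was at 6.05, 7.05 and 6.29 in sham, at 5.35, 4.68 and 3.80 in BPH and at 3.79, 3.41 and 0.63 in BPH+ghrelin. All 3 groups were apart, and the BPH+ghrelin group was called against sham (−3.85 ± 0.80, adjusted p = 0.031). This call was lost without BPH+ghrelin replicate 2, sham replicate 2 or sham replicate 3 (adjusted p up to 0.10). The steps from sham to BPH (−1.85 ± 0.80, adjusted p = 0.19) and from BPH to BPH+ghrelin (−2.003 ± 0.80, adjusted p = 0.21) did not pass. BPH+ghrelin replicate 3, where Cxcl17 was not well above background, set much of these sizes: without it the difference was −2.86 from sham (adjusted p = 0.031) and −1.01 from BPH (adjusted p = 0.37), and without BPH+ghrelin replicate 1 it was −4.44 from sham (adjusted p = 0.046). Ccl27, the other ligand of CCR10, had the opposite course to Ccl28: 6.11, 6.50 and 6.19 in sham, 5.55, 5.65 and 5.84 in BPH and 6.12, 6.10 and 6.15 in BPH+ghrelin, with BPH below both without overlap (−0.58 ± 0.14 against sham, adjusted p = 0.057).

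**Figure D3:**
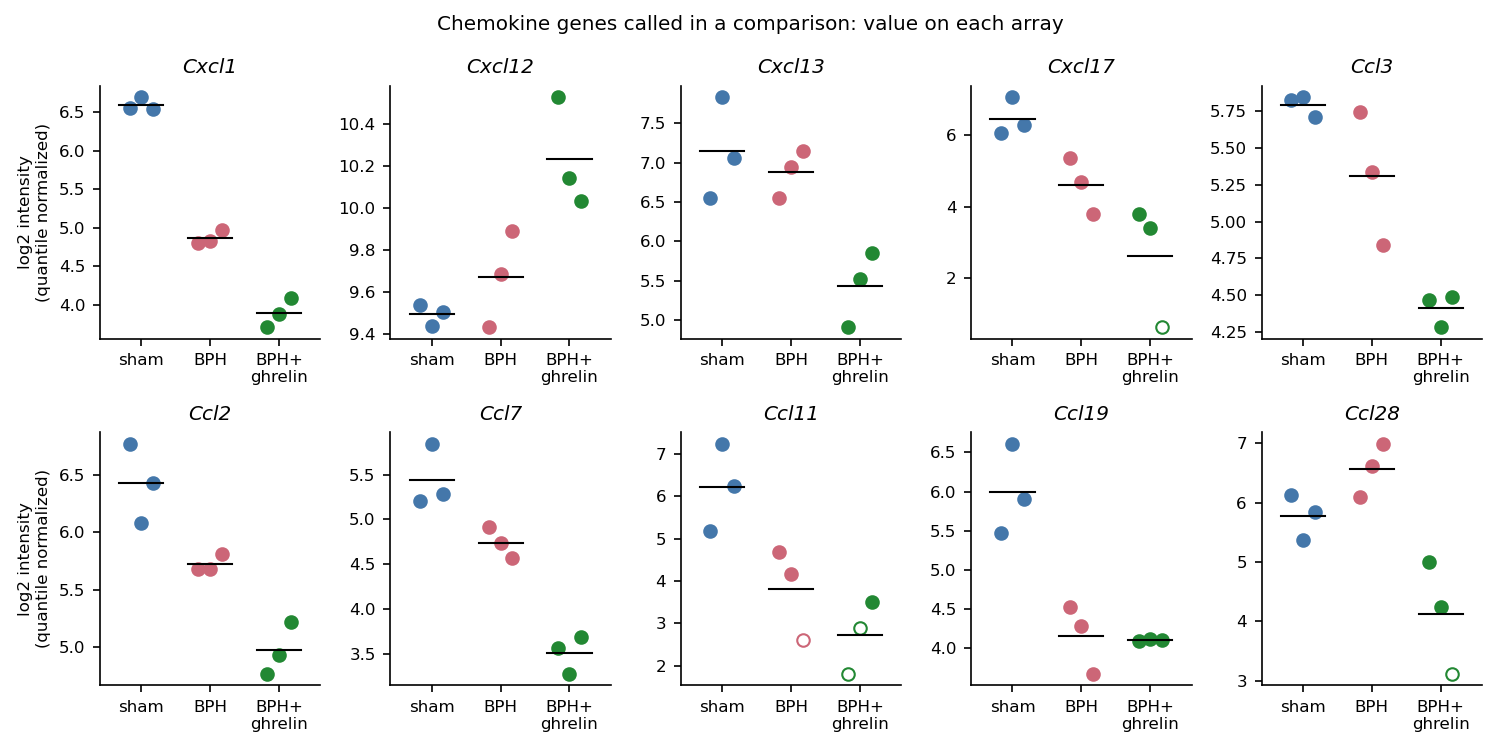
Quantile-normalized log2 intensity (vertical axis, a scale of its own in each panel) on each of the 9 arrays for the 10 members called in at least 1 comparison; bars are group means and open circles are arrays on which the probe was not well above background. Cxcl1, Ccl2 and Ccl7 form 3 steps from sham to BPH+ghrelin, and Cxcl12 is highest in BPH+ghrelin, at 10.04 to 10.5.

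Cxcl12, the stromal ligand of CXCR4 and of the scavenging receptor ACKR3, went the other way. Its brighter probe was at 9.54, 9.44 and 9.50 in sham, at 9.43, 9.69 and 9.89 in BPH and at 10.5, 10.1 and 10.04 in BPH+ghrelin. Sham and BPH overlapped and all BPH+ghrelin arrays lay above them. The difference was 0.74 ± 0.17 from sham (adjusted p = 0.043 in limma), 0.57 ± 0.17 from BPH (adjusted p = 0.13) and 0.18 ± 0.17 between BPH and sham (adjusted p = 0.52). The call against sham was lost in each fit without 1 of these arrays (sham replicates 1, 2 and 3 and BPH+ghrelin replicates 1, 2 and 3), at adjusted p of 0.056 to 0.14. The other probe of Cxcl12 was at 9.02, 8.52 and 8.86 in sham, 8.86, 9.26 and 9.60 in BPH and 9.65, 9.67 and 9.58 in BPH+ghrelin. On both probes all BPH+ghrelin arrays were above all sham arrays. Both receptors were slightly lower with ghrelin and not called: Cxcr4 was at 4.47, 4.39 and 4.04 in sham, 4.22, 4.32 and 4.33 in BPH and 3.35, 4.02 and 3.99 in BPH+ghrelin (−0.50 ± 0.20 against BPH, adjusted p = 0.21). Ackr3 was at 8.57, 8.34 and 8.50 in sham, 8.59, 8.58 and 8.73 in BPH and 8.29, 8.29 and 8.27 in BPH+ghrelin (−0.35 ± 0.11 against BPH, adjusted p = 0.14). The fibroblast markers, a list of 6 stromal genes all above background on every array, had a summed level of 13.7 to 14.5 in sham, 14.2 to 14.9 in BPH and 14.2 to 14.7 in BPH+ghrelin, overlapping in all groups. This sum is dominated by the brightest genes of the list, the collagens. By gene, 5 of the 6 had a negative difference between BPH+ghrelin and BPH, and Lum (lumican, a matrix proteoglycan) was called lower against BPH (−1.65 ± 0.23, adjusted p = 0.024) and against sham (−1.42 ± 0.23, adjusted p = 0.014). Against sham, where Cxcl12 was called, 4 of the 6 had a positive difference and 2 a negative one, with a median of 0.15, and Col1a1 (a collagen chain) was at 0.91 ± 0.42 without overlap (adjusted p = 0.23). The part of these markers in the Cxcl12 values was not tested.

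Cx3cl1 and Cxcl16 are the chemokines that are also anchored in the membrane of endothelium and epithelium. Cx3cl1 was at 11.4, 10.2 and 11.1 in sham, at 11.9, 11.6 and 11.1 in BPH and at 10.7, 10.5 and 10.3 in BPH+ghrelin. Cxcl16 was at 11.6, 10.7 and 11.5 in sham, at 12.1, 11.8 and 11.3 in BPH and at 11.2, 10.9 and 10.6 in BPH+ghrelin. In both, BPH+ghrelin was below BPH without overlap, by −0.99 ± 0.32 (adjusted p = 0.15 in limma) and −0.82 ± 0.31 (adjusted p = 0.19), and sham overlapped with both. Cxcl14, an epithelial and stromal chemokine, was likewise lower in BPH+ghrelin than in BPH and stood higher in BPH than in sham without overlap, with 13.1, 12.4 and 12.9 in sham, 13.4, 13.3 and 13.2 in BPH and 12.7, 12.5 and 12.4 in BPH+ghrelin (−0.79 ± 0.19 against BPH, adjusted p = 0.082). None of these 3 was called in any comparison. The receptor of Cx3cl1, Cx3cr1 of monocytes and resident macrophages, spread from 7.08 to 9.92 in sham and was at 6.75 to 7.25 in BPH and 7.05 to 8.18 in BPH+ghrelin.

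The interferon-induced ligands of CXCR3, which attract effector T cells, were not called. Cxcl10 spread from 9.31 to 11.2 in sham, 10.1 to 11.3 in BPH and 9.81 to 10.8 in BPH+ghrelin, and Cxcl9 lay within 5.94 to 7.12 on all arrays. Cxcl11 was at 4.36, 4.39 and 4.27 in sham, 5.52, 5.01 and 4.53 in BPH and 4.56, 4.33 and 3.98 in BPH+ghrelin, so that BPH was above sham without overlap (0.68 ± 0.25, adjusted p = 0.14 in limma). Cxcr3 was the one member with a difference of at least 2-fold upward. It was at 4.48, 3.79 and 3.38 in sham, at 4.01, 5.64 and 6.36 in BPH and at 5.69, 5.44 and 5.02 in BPH+ghrelin. The BPH+ghrelin arrays were above the sham arrays (1.50 ± 0.56, adjusted p = 0.15), and those of BPH overlapped with sham (1.45 ± 0.56, adjusted p = 0.15).

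The remaining members gave no call. Xcl1, a ligand from cytotoxic lymphocytes, was 1.00 ± 0.35 higher in BPH+ghrelin than in BPH on its brighter probe (adjusted p = 0.16 in limma), at 6.16 to 7.17 against 5.54 to 5.82. Its dimmer probe overlapped, at 3.04 to 3.77 against 3.44 to 3.72. Ccr9 was at 9.01, 9.98 and 9.31 in sham, 8.69, 8.73 and 8.60 in BPH and 8.81, 8.97 and 8.92 in BPH+ghrelin, with BPH below sham (−0.76 ± 0.23, adjusted p = 0.092). Ccl20, a ligand of CCR6 made by epithelium, spread from 2.77 to 5.83 inside BPH alone. Ccl22 lay within 5.55 to 6.35 on all arrays. Of the receptors, 11, 12 and 10 were tested in BPH against sham, BPH+ghrelin against BPH and BPH+ghrelin against sham. None was called by limma, and 5, 4 and 4 had an unadjusted p under 0.05 (45.5%, 33.3% and 40%), where the shares of all genes were 26.5%, 21.1% and 23.7%.

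Other genes of the chemokine system were taken as lists. Of 13 relatives and modulators, 10 were tested per comparison. Cd74 is the invariant chain of MHC class II and a receptor of the chemokine-like cytokine MIF. In BPH+ghrelin it was lower than in BPH by 1.06 ± 0.13 (adjusted p = 0.016 in limma) and lower than in sham by 0.56 ± 0.13 (adjusted p = 0.041). In BPH it was higher than in sham without overlap, and not called (0.51 ± 0.13, adjusted p = 0.064). Cklf, a chemokine-like factor, was higher in BPH (0.56 ± 0.12, adjusted p = 0.045) and in BPH+ghrelin (0.61 ± 0.12, adjusted p = 0.028) than in sham. Mmp12, a macrophage protease that cleaves chemokines, was higher in BPH than in sham (1.40 ± 0.21, adjusted p = 0.014). Thus 2 of 10 rose in BPH against sham, 1 fell in BPH+ghrelin against BPH, and 1 fell and 1 rose in BPH+ghrelin against sham, where the shares of all genes were 2.15% higher, 0.987% lower, and 3.30% lower and 3.00% higher. Of the genes that relay chemokine receptor signals, 17, 17 and 16 of 22 were tested in the same order. In BPH against sham, the Src-family kinase Fgr fell (−1.52 ± 0.15, adjusted p = 0.0032) and the G protein subunit Gnb1 rose (0.66 ± 0.12, adjusted p = 0.026). With ghrelin none was called against BPH. Against sham, BPH+ghrelin was lower in Fgr (−1.45 ± 0.15, adjusted p = 0.0025), in the kinase Prkcb (−0.89 ± 0.15, adjusted p = 0.018) and in the actin regulator Coro1a (−0.88 ± 0.15, adjusted p = 0.017). Of 18 inducers of chemokines, such as tumor necrosis factor, interleukins and NF-kappa B subunits, 12 were tested in each comparison and 0 were called by limma. Calls of these and the marker lists depended on single arrays too: of 13, 7 and 20 calls in the same order of comparisons, 4 to 13, 0 to 5 and 6 to 19 were kept when 1 array was left out, and 1, 0 and 0 without the 3 arrays between others. Fgr was kept in all 6 such fits of each of its comparisons, Cd74 in 1 of 6 of each, Mmp12 in 4, and Cklf in 1 for BPH and 2 for BPH+ghrelin.

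Markers of several cell types moved together with some of these ligands, and their part in the results was not tested. All 9 macrophage markers were above background on every array. Their summed level was 12.7 to 12.9 in sham, 12.5 to 13.0 in BPH and 12.2 to 12.3 in BPH+ghrelin, hence lower in all BPH+ghrelin arrays, as Ccl2, Ccl3 and Ccl7 were. With ghrelin, 2 of these 9 were called lower than in BPH, Mrc1 (−1.30 ± 0.21, adjusted p = 0.034 in limma) and C1qa (−0.80 ± 0.15, adjusted p = 0.049), and 8 of 9 had a negative difference, with a median of −0.57. Between BPH and sham the median of the 9 was 0.11, and Adgre1 was called higher (1.18 ± 0.26, adjusted p = 0.043). Of the 8 T cell markers with a probe, 3 to 7 were above background per array, and their sum was 8.74 to 8.89 in sham, 8.40 to 8.73 in BPH and 8.20 to 8.32 in BPH+ghrelin. This sum follows its brightest gene, Cd3d, which was called lower in BPH than in sham (−0.57 ± 0.11, adjusted p = 0.034), while Cd2 (0.44 ± 0.42) and Cd8b (0.25 ± 0.22) had positive differences and the median of the 4 tested was 0.05. The defining T cell gene Cd3e was well above background on 1 of the 9 arrays, while Cd3d was on all. Of 5 endothelial markers, 4 to 5 were above background, with a sum of 10.7 to 11.1 in sham, 10.2 to 10.6 in BPH and 10.1 to 10.2 in BPH+ghrelin.

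The shift of the 5 seminal vesicle markers was larger. Of these, 3 to 5 were above background per array, and their summed level was 16.5 to 17.3 in sham, 9.48 to 14.8 in BPH and 9.09 to 11.9 in BPH+ghrelin. Both DHT-treated groups lay below sham, as for Cxcl1, Ccl11, Ccl19 and Cxcl17, and overlapped each other. In BPH against sham, the secretory protein genes Svs3a (−5.57 ± 0.79, adjusted p = 0.011 in limma) and Svs4 (−4.26 ± 0.89, adjusted p = 0.040) were called lower, and in BPH+ghrelin against sham 3 of the 5 were. The sum follows the bright genes Semg1 and Svs4. Svs5 and Svs6 had positive differences from sham in both DHT-treated groups, with Svs6 at 1.27 ± 0.81 (adjusted p = 0.34) in BPH, and were not called. With ghrelin none of the 5 was called against BPH. Each of 5 smooth muscle markers had a negative difference between BPH+ghrelin and BPH, and the smooth muscle myosin gene Myh11 was called (−0.96 ± 0.11, adjusted p = 0.016), and their sum was 13.1 to 13.9 in sham, 13.3 to 13.9 in BPH and 12.8 to 13.2 in BPH+ghrelin. Of the 6 mast cell markers, 5 had a positive difference between these groups and 0 were called by limma, with a median of 0.62.

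**Figure D4:**
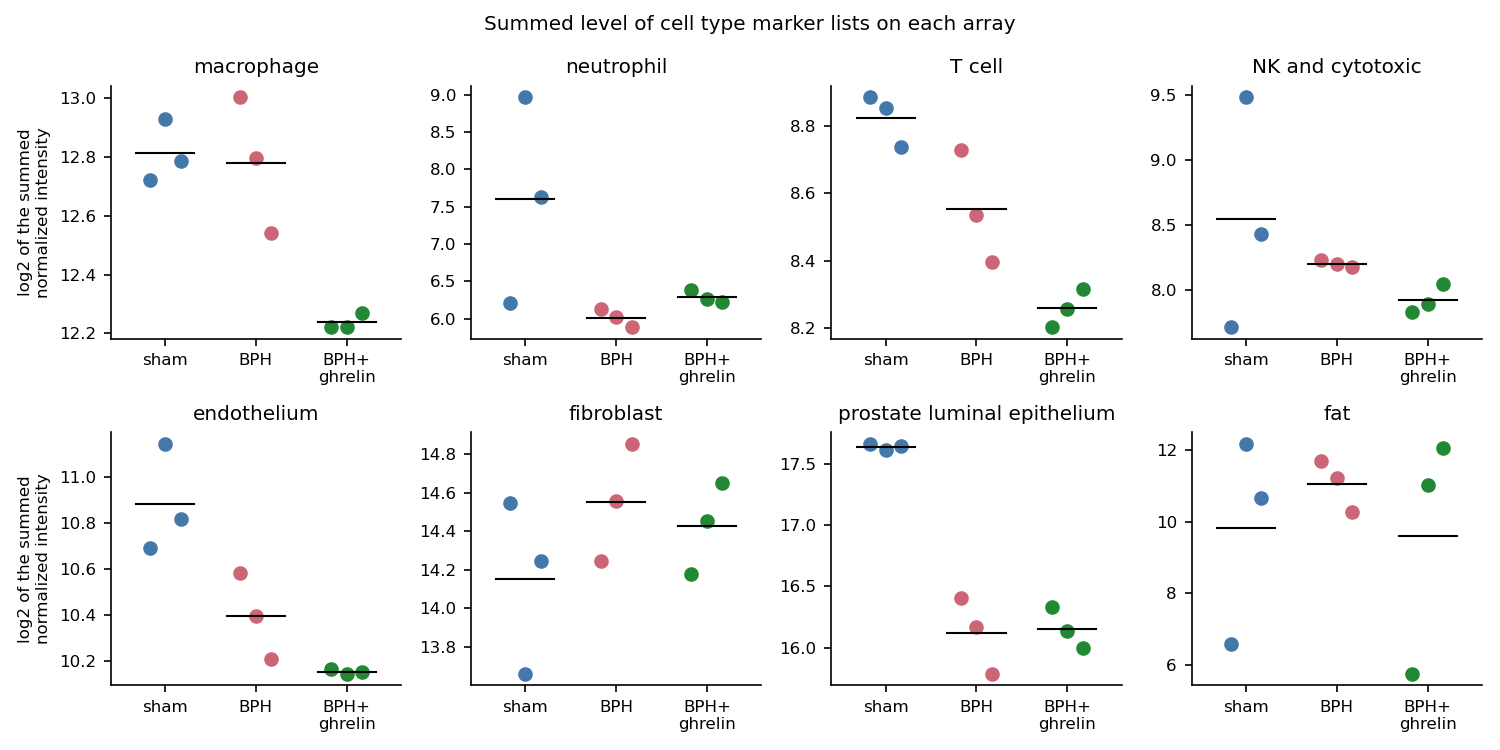
Log2 of the summed normalized intensity of 8 marker lists (vertical axis, a scale of its own in each panel) on each array, with bars for the group means. The macrophage list is at 12.2 to 12.3 on the 3 BPH+ghrelin arrays and at 12.5 to 13.0 on the other 6, the neutrophil list spreads widely inside the sham group, and the fat list does so inside both sham and BPH+ghrelin.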

How the data were processed

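Prostate RNA had been measured on 9 Agilent one-colour rat arrays, 3 per group, grouped by their labels. The paper gives 3 rats per group, and the labels do not name the animals. The authors deposited, per array, scanner output with a background-subtracted intensity that was not normalized between arrays, and a matrix of log2 values that they had quantile normalized (GeneSpring GX), used here as an alternative only. Outlier spots were removed, spots of a probe averaged, and log2 intensities of 30356 probes quantile normalized over 9 arrays (the methods name quantile normalization and no other of these steps); 17998 probes were matched by accession to symbols of RefSeq (GRCr8), used for names and promoters. The scanner files name another build (rn4), so that the coordinates of the promoters (GRCr8) are the only ones given. No probe sequences were used, and cross-reaction between related chemokines was not assessed.

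Genes were tested where a probe was detected (well above background) on 3 or more of 6 arrays, and the brightest such probe represented the gene. limma 3.58.1 (R 4.3.3; lmFit, 3 groups, eBayes) was fitted over all genes and tested on simulated data; a call is an adjusted p under 0.05 (Benjamini-Hochberg). A probe above background on 0 of 3 arrays of a group gives a bound. Given in full were members called, up to 8 per comparison and direction at least 2-fold apart without overlap, and fixed names (Cxcl12, Cxcr4, Ackr3, Ccl2, Cx3cl1, Cxcl16). The members, the lists (3 of the pathway and 16 of cell type markers), the motifs and the rules were chosen with earlier results of these data known. Alternatives were scaling to the 75th percentile, normexp (offset 50), no filter or a filter on all 6 arrays, the 6 arrays alone, the mean of probes, eBayes with trend and robust, the deposited matrix, a block for replicate number or for scan, and each array left out. The spelling searched for the kappa B element was changed after matches to another spelling had been seen. Scan stood in for the slide that had been planned. The fit without the 3 arrays that lie between others was chosen after seeing the data. A member is not reported here, though it is among the counts. The number of arrays limits the precision.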

Additional observations from a re-analysis of the deposited data

How the results depend on the processing

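Of 24 differences of members given in full, none was reversed in 398 values under the alternatives; 308 stayed on the same side of the threshold, 81 of calls were lost and 9 values passed that had not. Counts of called members are given here with the share of all genes called in brackets. The 2 members called in BPH against sham (4.33%) were 1 with the 6 arrays alone (0.926%) and 1 with the replicate block (1.24%). They were 20 with scan as a random block (36.3%). With 1 array left out they were 1 to 10 (0.609% to 15.7%), and 0 without the 3 arrays between others (0.0153%). The random block had an estimated correlation of −0.21 between arrays of one scan; a negative value narrows the errors, and 7088 genes were then called. In BPH+ghrelin against BPH, the 3 called (1.48%) were 8 with the 6 arrays alone (10.6%). They were 0 with the replicate block (0.0861%) and 0 with scan as a block (0.0101%). With 1 array left out they were 0 to 3 (0.0152% to 2.02%), and 0 without the 3 arrays (0%). In BPH+ghrelin against sham, the 9 called were 7 with the replicate block, 1 with scan as a block, 3 to 11 when 1 array was left out and 0 without the 3 arrays, where the 2, 3 and 9 genes had adjusted p of 0.14 to 0.95 with fewer arrays; leaving out arrays cannot turn the direction of genes whose arrays do not overlap. The cause of the other shifts was not tested.

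Members at least 2-fold apart were 8, 7 and 11 in the same order, 1, 0 and 2 after normexp, and 5, 2 and 6 with the filter on all 6 arrays, which tests fewer genes; when 1 array was left out they were 7 to 9, 7 to 12 and 11 to 14. Scaling to the 75th percentile moved the median of all genes in BPH against sham from 0.04 to −0.09. Samples with the same replicate number deviated together by correlations of −0.14 to 0.26, and the numbers were not taken as pairs. Dim members limit the precision, as 11 of 53 gave no signal above background.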
